A study of Mus musculus with 7 samples.

Results

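The spread between sister colonies of induced pluripotent stem cells (iPSC) was described gene by gene in 6 of the 7 RNA-seq libraries of the series. The members were the 14273 autosomal genes, of 54838 genes in the table, with a mean of at least 1 CPM over the 6 colonies. CPM is a gene's counts scaled to a fixed library total after TMM, a method that evens out differences in RNA composition between libraries. For each gene the mean of its source was removed from log2 CPM, so that only differences among the 3 colonies of 1 source remained. These deviations chose and ranked the genes, and their spread is therefore given as a description, with no test.

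The study started from splenic B cells of the germinal center (GC), where antibody genes are mutated and selected, and picked 3 iPSC colonies from each of 2 sources. GC colonies came from bulk GC B cells. M colonies are read here as derived from the Myc-GFP-sorted fraction of these cells, a sort that marks cells receiving T cell help, because the titles write only M and the design text names no other second source. The remaining library is V6.5, an established embryonic stem cell (ESC) line, and served only for comparison of levels.

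Both colony groups share one history. Male mice were immunized with SRBC 9 days before the spleen was taken. B220+ CD38- Fas+ cells were sorted, and 6 days with cytokines on a feeder layer of mouse embryonic fibroblasts (MEF) followed. Doxycycline (Dox), which turns on the reprogramming factors, was given for 10 days and withheld for another 4 days. Picked colonies had 1 passage on gelatin and 45 min of pre-plating against feeders. The medium was KO-DMEM with FBS and LIF. A picked colony and its culture are a single unit here. Which mouse gave which colony, and any batch or date, is not stated in the labels.

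A picked iPSC colony descends from few cells, and sister colonies of one experiment can differ in how completely genes were reset, in their imprints and in their balance of cell states. Mouse pluripotent cultures in serum and LIF hold naive cells, cells that drift toward the formative state that precedes lineage commitment, a few cells in a state resembling the 2-cell embryo, and cells that turn toward primitive endoderm. Primitive endoderm is the extraembryonic layer that lays down laminin and collagen IV basement membrane and forms the yolk sac. Genes of translation, protein folding and the proteasome run in all of these states.

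Several properties of the libraries bear on the spread. Totals ran from 31139508 (ESC) to 35728921 (GC colony 1) counts. Pou5f1, which encodes the pluripotency factor Oct4, was high in all 6 colonies (374 to 505 CPM). The 21 B cell identity genes summed to 39.8 to 43.8 CPM in GC colonies, 28.5 to 29.7 in M colonies and 42.7 in ESC. The 8 Y-linked genes summed to 134, 118 and 139 CPM in GC colonies 1 to 3 and to 134 CPM in M colony 1. They had 0 counts in M colonies 2 and 3, although the labels give male mice, and 25.7 CPM in ESC. A count of 0 in all 8 genes allows up to 3 counts, or 0.0903 CPM in M colony 2 and 0.0957 CPM in M colony 3, for counting error only. No autosome stood apart as a whole: the largest median deviation of any chromosome in any colony was 0.033 on the log2 scale (GC colony 3).

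Sister colonies were close for most genes. The median SD of log2 CPM was 0.12 among GC colonies and 0.121 among M colonies, and the median ratio of the highest to the lowest colony was 1.17 in each source. An SD of 0.5 or more was reached by 670 genes (4.69%) among GC colonies and by 677 genes (4.74%) among M colonies. A range of at least 2-fold was found for 590 genes (4.13%) and 582 genes (4.08%). The spread fell with the level of a gene. Among genes of 1 to 5 CPM the median SD was 0.275 in GC and 0.294 in M colonies, and that class held 579 and 583 of the genes at an SD of 0.5 or more. Among genes of at least 100 CPM the median SD was 0.0737 and 0.0621, and 1 and 6 genes reached 0.5.

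Counting error accounts for part of the spread of weakly counted genes. If each count were independent, 53.9% of genes in GC colonies and 55.4% in M colonies had an SD at least 2 times that expected from counting alone. If each fragment was counted as 2 mates, those shares were 33.7% and 33.5%. Even numbers made up 68.5% to 72.2% of the counts from 1 to 49 in each library, against 49.5% to 50.9% of counts of 1000 or more. Whether mates were counted one by one was not tested. To set genes of different levels side by side, each SD was divided by the running median SD of the genes nearest in level. This ratio is called the level-adjusted SD, and a value of 1 is typical for the level.

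The 2 sources had like distances between sisters. The distance of a colony from the mean of its sisters, as a root mean square over genes, was 0.267, 0.237 and 0.344 log2 units for GC colonies 1 to 3. It was 0.315, 0.268 and 0.29 for M colonies 1 to 3. GC colony 3 was the farthest of all 6 and GC colony 2 the nearest, so the M values lay within the range of the GC values. The means were 0.283 ± 0.0554 and 0.291 ± 0.0236 (SD, n = 3 each), with a two-sided exact permutation p = 0.8. With 3 against 3 the smallest p is 0.1, so this design could not reach 0.05. Leaving out GC colony 1 or GC colony 2 turned the sign of the difference.

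Pairs of sisters showed the same arrangement. GC colonies 1 and 2 differed by at least 2-fold in 88 genes (0.617%), the fewest of any pair. GC colony 3 differed from colony 1 in 424 genes (2.97%) and from colony 2 in 355 genes (2.49%). Among M colonies the pairs differed in 245 (1.72%, colonies 1 and 2), 353 (2.47%, colonies 1 and 3) and 215 genes (1.51%, colonies 2 and 3). GC colonies thus held 1 close pair and 1 distant colony, and M colonies were more evenly spaced.

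Few of the genes that varied most for their level in one source did so in the other. The 5% with the largest level-adjusted SD were 714 genes in each source, of which 102 were shared, or 14.3% of each set against 5% of all genes. Just inside and just outside that limit the values were 2.525 and 2.525 in GC and 2.464 and 2.463 in M colonies. Across genes the Spearman rho of the level-adjusted SD in the 2 sources was 0.0659 over 14273 genes, which share libraries and are not independent. Without the adjustment for level it was 0.433. Of the genes at an SD of 0.5 or more, 160 were shared, 23.9% of the GC set and 23.6% of the M set. Without M colony 3 the shared part of the 5% sets was 6.44%, and over the other colonies left out it ran from 12.2% to 16.4%.

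**Figure D1:**
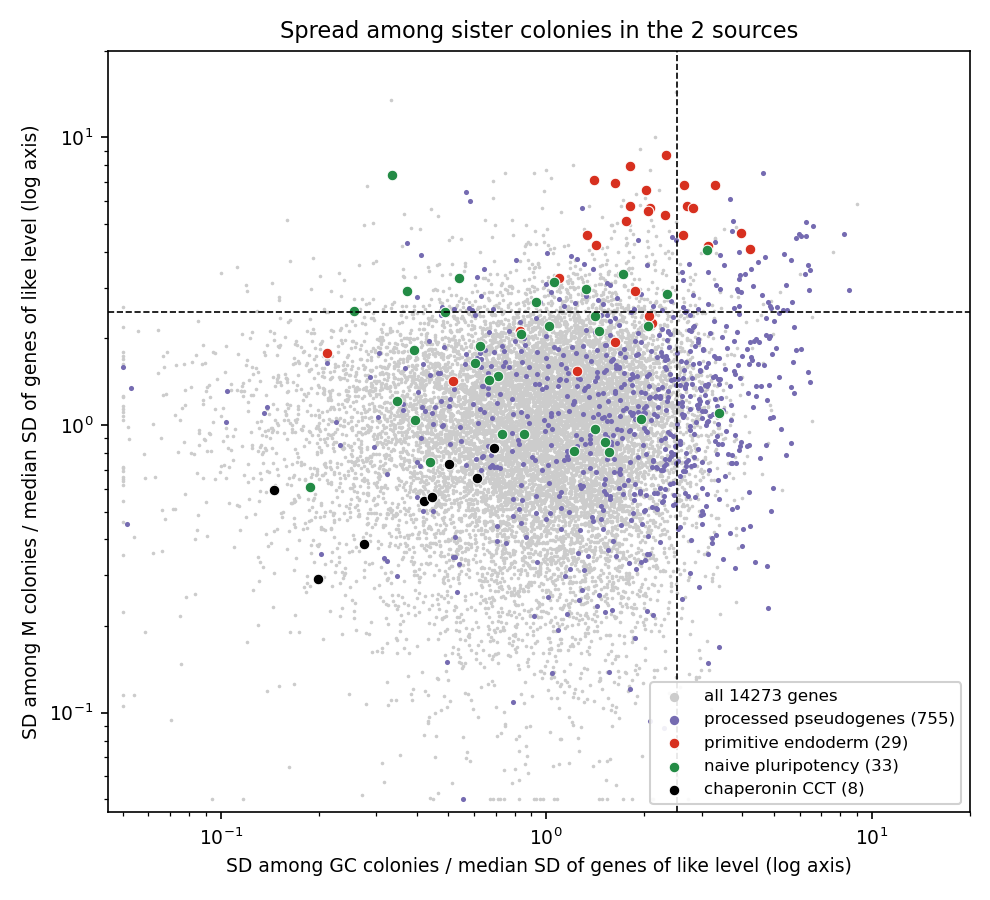
Each point is a gene; the x axis gives its SD of log2 CPM among the 3 GC colonies and the y axis among the 3 M colonies, each divided by the median SD of genes of like level (log axes, values under 0.05 drawn at 0.05). Dashed lines mark the 5% limits of 2.525 and 2.464. Primitive endoderm genes lie toward the upper right, processed pseudogenes toward the right, and the 8 chaperonin genes in the lower left.

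In GC colonies the largest spread came mainly from 1 colony, and in M colonies it was more evenly divided. For every gene the colony farther from its nearer sister was taken as the odd colony, a rule chosen after the data were seen. GC colony 3 was odd for 618 of the 714 most variable GC genes (86.6%), against 48.6% of all genes, and was the low colony in 394 and the high colony in 224. M colony 1 was odd for 359 of the 714 most variable M genes (50.3%), against 39.2% of all genes, M colony 2 for 193 and M colony 3 for 162. Among genes at an SD of 0.5 or more, not adjusted for level, GC colony 3 was odd for 462 of 670 (69%). M colonies 1 and 3 were odd for 268 (39.6%) and 258 (38.1%) of 677. Without GC colony 3 the median SD of the remaining GC pair was 0.0719, and 333 genes reached an SD of 0.5. Without M colony 1 the median SD of the M pair was 0.0867.

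**Figure D2:**
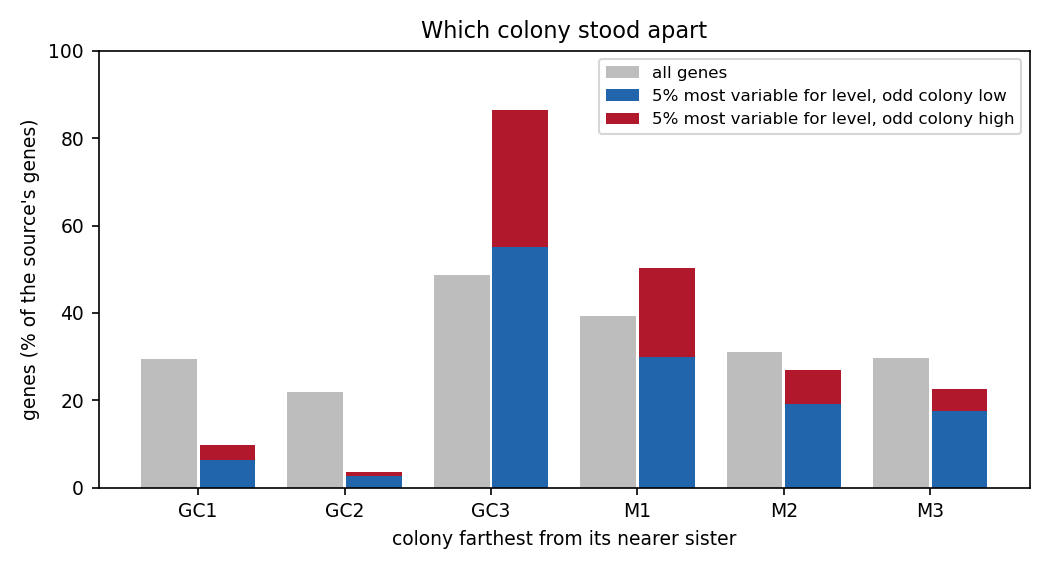
Bars give, for each colony, the percent of its source's genes for which it was the odd colony: grey for all 14273 genes, coloured for the 714 genes most variable for their level, split by whether the odd colony was low (blue) or high (red). GC colony 3 reaches 86.6% of the coloured set and M colony 1 50.3%.

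The protein-coding genes that varied most among GC colonies included imprinted genes. Mcts2, an imprinted retrogene related to a translation factor (ENSMUSG00000042814, chromosome 2 from 152687035 to 152687946, GRCm38), stood at 6.52, 18.6 and 15.6 CPM in GC colonies 1 to 3. It stood at 17.6, 16.2 and 19.7 CPM in M colonies 1 to 3 and at 20.4 CPM in ESC. Only GC colony 1 was low, by 2.84-fold from the highest sister, and its SD was 0.81 in GC against 0.14 in M colonies. Zdbf2, another paternally expressed imprinted gene (chromosome 1 from 63273265 to 63314576), stood at 50.8, 30.5 and 62.5 CPM in GC colonies and at 100, 80.3 and 97.2 CPM in M colonies. Here GC colony 2 was the lowest, and all 3 GC values lay below the M values. Both genes had level-adjusted SDs above 6 in GC colonies (6.57 and 6.53). Mcts2 has a close relative elsewhere in the genome, and the handling of reads shared by copies is not stated.

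Other leading genes of the GC source mostly set colony 3 apart. Fmc1, an assembly factor of the mitochondrial ATP synthase, stood at 15.2, 10.5 and 7.04 CPM in GC colonies 1 to 3. In M colonies it stayed between 10.1 and 10.9 CPM. Nrtn, the nerve growth ligand neurturin, stood at 10.8, 9.89 and 5.12 CPM in GC colonies and between 6.29 and 7.92 CPM in M colonies. Both were lowest in GC colony 3. Prr5l, which binds the mTOR complex, was lowest there too (6.91, 6.02 and 3.41 CPM). Zyg11a, a substrate receptor of a ubiquitin ligase, was highest there (6.32, 7.56 and 12.7 CPM). Lhx1, a transcription factor of the gastrulating embryo, stood at 2.88, 1.6 and 4.8 CPM in GC colonies and at 11.8, 6.92 and 8.78 CPM in M colonies, so that each GC value lay below each M value. The remaining 5 of the 12 (BC005561, Gm9774, Gm10073, Tmppe and AC117239.2) ranged 2.03-fold to 2.19-fold among GC colonies, with colony 3 lowest in 3 of them. In BC005561 and Tmppe colony 3 was the highest, but the odd colony was colony 1, which was low (deviations of -0.583 and -0.589).

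The deviation of GC colony 3 ran with the length of the gene. In the shortest 20% of genes by exonic length (median 1308 bases) its median deviation was -0.13, and in the longest 20% (median 9651 bases) it was 0.0978. GC colony 1 had 0.103 and -0.0709 in the same classes, and the M colonies stayed between -0.0267 and 0.0365. Across 14273 genes the Spearman rho of deviation with length was 0.47 in GC colony 3, -0.42 in colony 1 and -0.23 in colony 2, against -0.13 to 0.075 in M colonies. With the GC content of the transcript it was -0.27, 0.2 and 0.16 in GC colonies 3, 1 and 2. Of the shortest genes 13.1% were in the most variable GC set, of the longest 7.43% and of the middle class 1.26%.

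Processed pseudogenes, which are short copies of messenger RNAs put back into the genome, moved most. The 755 measured had median deviations of 0.266, 0.195 and -0.456 in GC colonies 1 to 3 and of 0.0782, 0.0296 and -0.072 in M colonies 1 to 3. They made up 262 of the 714 most variable GC genes (36.7%) and 97 of the M set (13.6%), against 5.29% of all genes. Their reads can be shared with near-identical parent genes, so values of single members are uncertain. After an adjustment for length and GC content, added after the data were seen, 385 of the 714 GC genes (53.9%) and 644 of the M genes (90.2%) stayed in the most variable sets. GC colony 3 was then odd for 74.9% of the GC set, and the median SD was 0.103 in GC and 0.12 in M colonies. RNA quality values are not in the labels, and their part in the result was not tested.

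**Figure D3:**
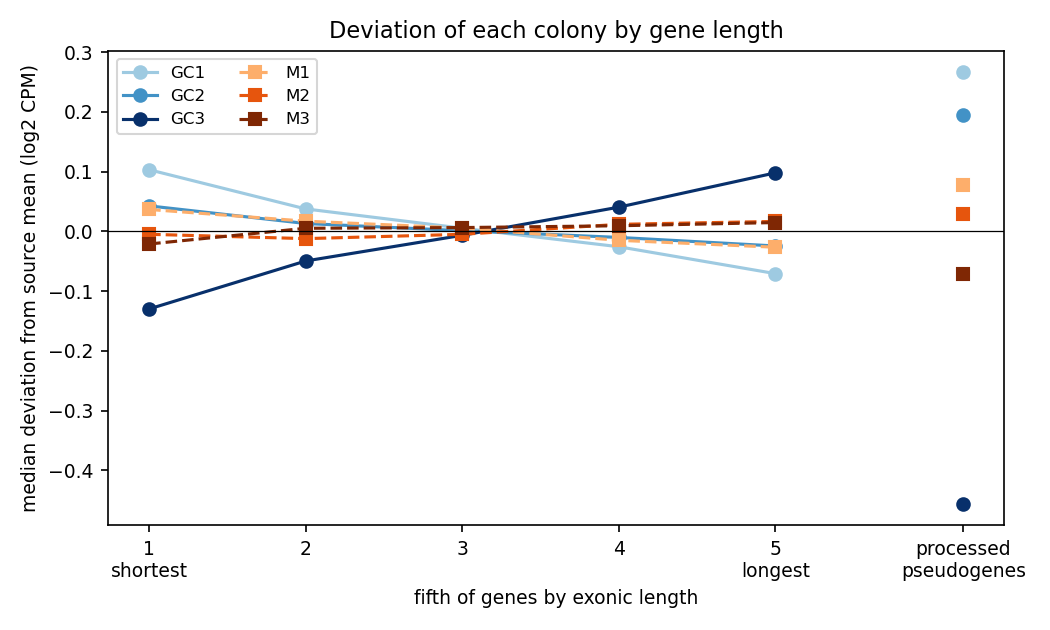
Lines give the median deviation of each colony from its source mean (log2 CPM) in 5 equal classes of genes from the shortest to the longest exonic length (GC solid, M dashed), with the 755 processed pseudogenes at the right. GC colony 3 rises from -0.13 to 0.0978 while GC colony 1 falls from 0.103 to -0.0709, and the M colonies stay near 0.

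Among M colonies the leading genes set colony 1 against colonies 2 and 3. Adam23, a cell adhesion protein of the ADAM family (ENSMUSG00000025964, chromosome 1 from 63445891 to 63596276), stood at 33.5, 110 and 99.1 CPM in M colonies 1 to 3 and at 139, 143 and 143 CPM in GC colonies. Kbtbd11, a Kelch-repeat protein, stood at 2.24, 7.67 and 7.91 CPM in M colonies and between 7.3 and 7.58 CPM in GC colonies. M colony 1 alone was low in both genes, and ESC (115 and 8.2 CPM) was near the other colonies. Nlrp4f, a member of an oocyte gene family, stood at 3.38, 15.7 and 15.4 CPM in M colonies and at 2.54, 2.73 and 3.03 CPM in GC colonies. In that gene M colony 1 was the one near the GC colonies, and ESC stood at 8.63 CPM. Arsk, a lysosomal sulfatase, had the same order (2.95, 9.45 and 8.58 CPM in M colonies, 3.75 to 4.3 CPM in GC colonies).

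For other genes M colony 1 was the high one. Aass, an enzyme of lysine breakdown, stood at 9.33, 2.83 and 2.62 CPM in M colonies 1 to 3, against 6.12 to 8.37 CPM in GC colonies and 1.28 CPM in ESC. Pou2f2, a POU factor best known from B cells, stood at 6.91, 2.83 and 2.81 CPM in M colonies, 5.65 to 7.61 CPM in GC colonies and 8.43 CPM in ESC. M colonies 2 and 3 were below every other library for Pou2f2. Rpl39l, a variant ribosomal protein, stood at 22.3, 11.7 and 8.43 CPM, and Sult6b1, a sulfotransferase, at 5.74, 2.59 and 2.33 CPM. Each was at 21.3 to 23 CPM and 7.39 to 8.48 CPM in GC colonies. Gm2000, a predicted coding gene, broke the pattern: M colony 3 was low (146, 144 and 45.7 CPM), with the largest level-adjusted SD of the named genes (14.4).

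Steps of this kind were counted as genes with 1 colony at least 1 log2 unit from its nearer sister and the other 2 within 0.25, limits chosen after the data were seen. M colony 1 had 73 such genes, 32 high and 41 low, of which 49 were protein-coding. GC colony 3 had 158, of which 149 were low and 16 protein-coding, and M colony 3 had 62, of which 55 were low and 17 protein-coding. The other 3 colonies had 6 to 22. The 73 genes of M colony 1 lay on 18 chromosomes, with more on some than on others. Of them 18 had another within 2 Mb, among them the neighbours Olig1 and Olig2, and the like share over all genes was not computed. On chromosome 13 a group ran from Gm7240 (start 61804257) to Zfp429 (start 67387905). These genes did not move in 1 direction. Gm7240, Nlrp4f, Gm47251 and Zfp429 were low in M colony 1, and Fbp2, Gm48218, Gm26754 and Gm46426 were high. Whether such genes lie closer together there than elsewhere was not tested. In 38 of the 73 the GC colonies were nearer to M colony 1 and in 35 nearer to its sisters. M colony 1 is also the M colony with Y-linked counts, and the part of that difference in these genes was not tested.

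**Figure D4:**
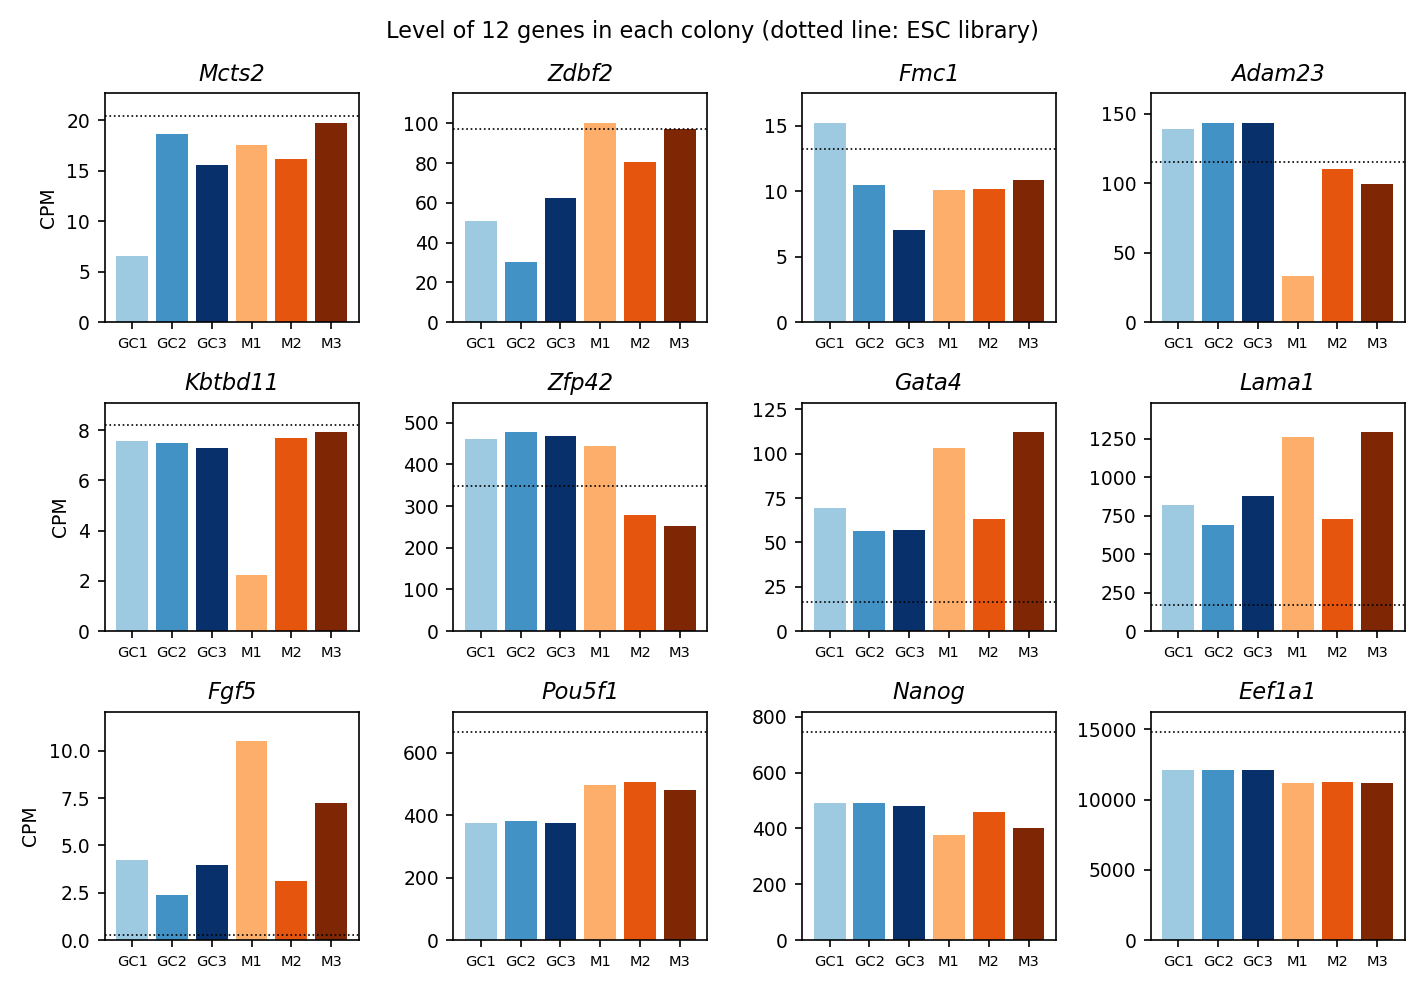
Bars give CPM of 12 genes in the 3 GC colonies (blue) and 3 M colonies (orange), with the ESC library as a dotted line. Mcts2 is low in GC colony 1 alone, Adam23 and Kbtbd11 in M colony 1 alone, Gata4 and Lama1 in M colony 2 among the M colonies, and Eef1a1 is level within each source.

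Promoters of the variable genes were searched for TATAAA, the core of the TATA box, on either strand in the window from 250 bases before to 50 bases after the RefSeq start (build GRCm38.p6). Of the 14273 genes 10239 had a window, and 8.64% held the motif, against 13.6% of all 31396 autosomal windows. The share was 11% in the most variable GC set, 14.6% in the M set (64 of 437), 25.9% in the genes of both sets (7 of 27) and 5.74% (41 of 714) in the genes of the lowest 25% of level-adjusted SD in both sources. A match is a run of letters and not a site in use. Of 31 genes named as most variable, 21 had a window and 4 held the motif. Shown are stretches of 3 of these, with the motif in capitals, and of the least variable gene, Eef1a1, whose window holds no exact match. That window does hold the similar run tatataag, after the annotated start and outside the stretch shown, which an exact search passes over. The absence of a match is therefore not the absence of a TATA box. Fgf5 lies at chr5:98254204-98254233 (plus strand, after the start), Olig2 at chr16:91225450-91225549 (plus strand, up to the start), Prr5l at chr2:101839131-101839230 (minus strand, motif on the opposite strand) and Eef1a1 at chr9:78481725-78481824 (minus strand, up to the start).
Fgf5: gagatcactggcgtTATAAAtatcccggtg
Olig2: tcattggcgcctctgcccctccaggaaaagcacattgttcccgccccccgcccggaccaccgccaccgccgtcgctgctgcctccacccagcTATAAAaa
Prr5l: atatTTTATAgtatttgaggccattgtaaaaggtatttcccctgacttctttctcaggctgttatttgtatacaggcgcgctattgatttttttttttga
Eef1a1: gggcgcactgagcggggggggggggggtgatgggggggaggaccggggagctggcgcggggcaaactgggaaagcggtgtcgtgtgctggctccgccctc

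The 4 genes behaved differently. Fgf5, the ligand that marks formative cells, stood at 10.5, 3.1 and 7.24 CPM in M colonies, at 4.25, 2.4 and 3.98 CPM in GC colonies and at 0.27 CPM in ESC. Colony 2 was the lowest of each source. Olig2, a factor of motor neurons and oligodendrocytes, stood at 6.26, 19 and 16.5 CPM in M colonies and at 18.1, 17.8 and 13.6 CPM in GC colonies, so that M colony 1 was low alone.

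Of 37 gene lists, the primitive endoderm list had the largest spread in both sources. The median level-adjusted SD of its 29 measured members was 2.03 in GC and 4.65 in M colonies, against 1 for all genes, and 8 and 22 of the 29 were among the 5% most variable. M colony 2 was the lowest M colony for 28 of the 29, against 32.2% of all genes. GC colony 2 was the lowest GC colony for 19, against 26.3% of all genes. Median deviations were 0.192, -0.421 and 0.24 in M colonies 1 to 3 and 0.122, -0.135 and 0.016 in GC colonies 1 to 3. The list's spread in M colonies rested on colony 2: without it the median ratio was 0.813. Without GC colony 2 the GC ratio was 1.14.

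The members named by rule were 3 transcription factors. Sox17 stood at 21.3, 10.9 and 23.3 CPM in M colonies 1 to 3 and at 18, 13.1 and 11.7 CPM in GC colonies. Foxa2 stood at 20.7, 9.03 and 20.4 CPM in M and at 12.3, 9.62 and 10.7 CPM in GC colonies. In both genes M colony 2 lay below its sisters and below all GC colonies. Hnf4a was highest in M colony 3 (7.09, 5.72 and 12.5 CPM). Of genes chosen after their values were seen, Gata4 stood at 103, 63.3 and 112 CPM and the laminin gene Lama1 at 1259, 729 and 1292 CPM in M colonies. GC colonies held 56.7 to 69.1 CPM of Gata4 and 691 to 879 CPM of Lama1, so that M colony 2 lay within the GC range for both. In ESC they were 16.6 and 167 CPM. Other members of the list differed: M colony 2 lay above every GC colony for Cubn (231 against 124 to 164 CPM) and Lrp2 (261 against 182 to 235 CPM). The 29 measured members summed to 7804.6 CPM in M colony 2, within the 6911.9 to 7957.2 CPM of the GC colonies. In bulk RNA, fewer cells of a type and less RNA per cell cannot be told apart.

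Fibroblast markers, which leftover feeders would add, were measured beside this list. Their 38 genes summed to 6969.4, 7153.7 and 7659.9 CPM in GC colonies 1 to 3, 8380.5, 7214.6 and 7251.3 CPM in M colonies 1 to 3 and 4585.3 CPM in ESC, and none was at 0 in every colony. M colony 3 was the lowest M colony for 24 of the 33 measured, against 30.6% of all genes, and M colony 1 had a median deviation of 0.141, so that the order of the M colonies differed from that of primitive endoderm. The median level-adjusted SD was 1.52 in GC and 2.26 in M colonies, with 7 and 13 among the most variable. Col3a1, a fibrillar collagen, stood at 32, 33.6 and 48.2 CPM in GC and at 52.7, 44.7 and 37.6 CPM in M colonies. Postn, a matrix protein, stood at 25.6, 27 and 38.2 CPM in GC and at 40.4, 33.2 and 32.9 CPM in M colonies. GC colony 3 and M colony 1 were the high colonies in both. Sparc belongs to both lists, and the part of feeder RNA in the spread was not tested.

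The 2-cell-like list, genes of the early embryo that flare in rare cultured cells, spread more among M than among GC colonies. Of its 32 measured members 0 were in the most variable GC set and 11 in the M set, with median level-adjusted SDs of 1.14 and 2.05. M colony 1 was the lowest for 29 of the 32, against 37.2% of all genes, and the median deviations of M colonies 1 to 3 were -0.289, 0.271 and 0.0109. GC colony 1 was the lowest GC colony for 19 and GC colony 2 for 2, against 34% and 26.3% of all genes. Sp110, a nuclear body protein, stood at 4.91, 11.5 and 11.6 CPM in M and at 24.2, 25.9 and 23.3 CPM in GC colonies. Usp17ld, a deubiquitinase, stood at 2.64, 5.18 and 3.64 CPM in M and at 7.63, 7.56 and 5.72 CPM in GC colonies. The M colonies lay below the GC colonies in both genes. Many members sit in families of near-identical copies, so single values are uncertain.

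Naive pluripotency genes spread less among GC than among M colonies. The median level-adjusted SD of 33 members was 0.854 in GC and 1.89 in M colonies, and 2 and 11 were among the most variable. The GC value was 1.12 with the length and GC adjustment and 1.07 without GC colony 1. Pou5f1 stood at 375, 381 and 374 CPM in GC colonies and at 496, 505 and 481 CPM in M colonies. Nanog stood at 490, 492 and 480 CPM in GC and at 377, 458 and 402 CPM in M colonies. The GC values of each lay within 1.02-fold of one another. Zfp42 (Rex1), a marker of the naive state, stood at 462, 477 and 468 CPM in GC and at 444, 279 and 253 CPM in M colonies, so that M colony 1 was near the GC colonies and its sisters were low. Its level-adjusted SD was 0.336 in GC and 7.42 in M colonies.

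M colony 2 was the highest M colony for 20 of the 33 naive genes, against 32.4% of all genes. Tbx3 stood at 101, 138 and 121 CPM, Prdm14 at 14.5, 24 and 17.9 CPM, Klf4 at 473, 575 and 511 CPM and Esrrb at 361, 455 and 422 CPM in M colonies 1 to 3. M colony 1 was the lowest in these 4. Over the 33 genes, however, M colony 3 was the lowest for 16 (48.5%, against 30.6% of all genes). M colony 1 was the lowest for 12 (36.4%, against 37.2% of all genes). Among GC colonies these 4 genes ranged by 1.05-fold to 1.14-fold. Dppa3 went the other way, at 17.9, 12.5 and 13 CPM in M colonies and 16.5, 13.3 and 16.5 CPM in GC colonies. Rex2 was also highest in M colony 1 among the M colonies (24.2, 17.4 and 16.6 CPM). Sox2 (351 to 427 CPM over the 6 colonies), Lin28a (356 to 387 CPM) and Myc (22.2 to 35.6 CPM) had SDs of at most 0.19. For Pou5f1, Sox2, Klf4 and Myc, transcripts of the Dox-driven factors and of the resident genes cannot be told apart in these counts. The 23 formative and primed genes had median level-adjusted SDs of 1.24 and 2.02. Car4, a carbonic anhydrase, was high in M colony 3 (56.6, 56.8 and 89.9 CPM), and Tcf15, a factor of cells leaving the naive state, was low in GC colony 3 (51.5, 53.3 and 36 CPM).

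Metabolic programs split the sources differently. Of 35 genes of glycolysis and hypoxia, M colony 1 was the lowest M colony for 27, against 37.2% of all genes, and 0 GC and 11 M members were among the most variable. Slc2a1, the glucose transporter GLUT1, stood at 1024.3, 1343.8 and 1305.6 CPM in M colonies. Bnip3, a hypoxia-induced mitophagy receptor, stood at 114, 138 and 150 CPM and Ankrd37, another hypoxia-induced gene, at 7.09, 13 and 11.6 CPM there. M colony 1 was low for all 3. In oxidative phosphorylation GC colony 3 was the lowest for 75 of 90 genes, against 39.8% of all genes. GC colony 1 was the highest for 76 of the 90, against 34.9% of all genes. M colony 3 was the lowest for 34 of 90, against 30.6% of all genes. In cytosolic ribosomal proteins colony 3 was the lowest in both sources, for 60 of 80 in GC and for 59 of 80 in M colonies, against 39.8% and 30.6% of all genes. Colony 1 was the highest for 77 of 80 in GC and for 52 of 80 in M colonies, against 34.9% and 35.4% of all genes. Of these 80, 0 in GC and 6 in M colonies were among the most variable. The median deviations of the 2 lists were 0.0975, 0.00718 and -0.1 and 0.114, -0.00973 and -0.092 in GC colonies 1 to 3. With deviations adjusted for length and GC content, the values for GC colony 3 were -0.000902 and 0.00391. GC colonies 1 and 2 then stood at 0.0263 and -0.0284 in oxidative phosphorylation and at 0.0432 and -0.0455 in ribosomal proteins. The median level-adjusted SD among GC colonies went from 1.34 to 1.14 in the first list and from 1.43 to 1.47 in the second. M colony 3 went from -0.0459 to -0.0341 in ribosomal proteins.

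**Figure D5:**
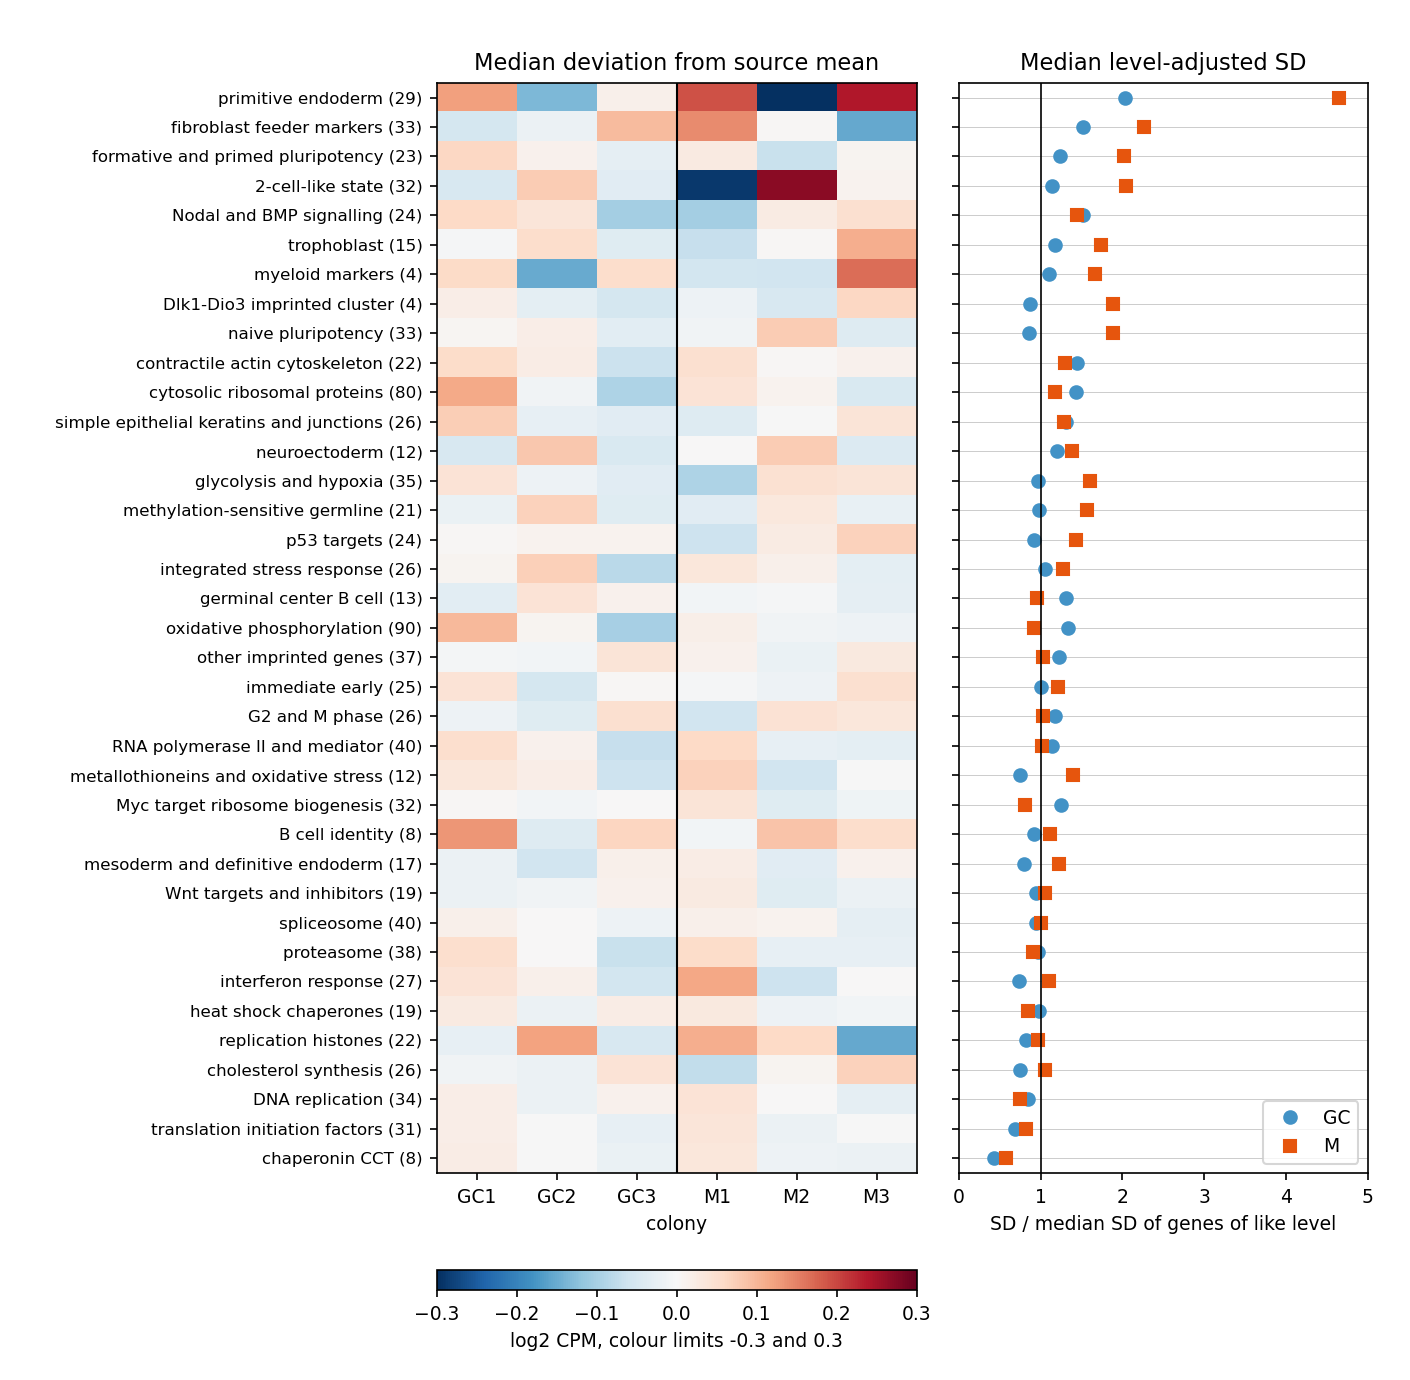
The left panel gives the median deviation of each of 37 gene lists (members measured in parentheses) in each colony from its source mean, in log2 CPM with colours ending at -0.3 and 0.3; the right panel gives the median level-adjusted SD of each list among GC (circles) and M colonies (squares), where 1 is typical for the level. Primitive endoderm stands at 2.03 and 4.65 and the chaperonin at 0.433 and 0.578.

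Over the 37 lists the M ratio was the larger in 24. In 16 lists both ratios were above 1 and in 6 both were below 1. The Spearman rho between the 2 sources over the 37 lists was 0.288, where lists share genes and libraries. Over the settings run, primitive endoderm ranked 1 of 37 in M colonies except without M colony 2 (rank 32). In GC colonies it ranked 1 except without GC colony 2 (rank 14) and with a minimum of 5 CPM (rank 2).

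Imprinted genes had medians near typical and some members far above it. The 37 measured outside the Dlk1-Dio3 cluster had median level-adjusted SDs of 1.22 in GC and 1.03 in M colonies. Of these, 4 (10.8%) in GC and 8 (21.6%) in M colonies were among the 5% most variable. Besides Mcts2, the rule named Peg3, a paternally expressed zinc finger gene, and H19, a maternally expressed RNA. Peg3 stood at 97.1, 98.2 and 140 CPM in GC and at 188, 131 and 192 CPM in M colonies. H19 stood at 161, 114 and 130 CPM in GC and at 154, 148 and 212 CPM in M colonies. Each had 1 colony apart from a close pair in the M source. Grb10, a growth inhibitor chosen after its values were seen, stood at 209, 355 and 351 CPM in M colonies and at 220, 239 and 239 CPM in GC colonies, so that M colony 1 matched the GC level. Of the Dlk1-Dio3 cluster, Rian stood at 57.3, 30.5 and 38.3 CPM in M colonies, 26.1 to 27.4 CPM in GC colonies and 271 CPM in ESC.

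The 102 genes in the most variable set of both sources fell into 2 main kinds. Processed pseudogenes made up 55, with median deviations of -0.976 in GC colony 3 and -0.748 in M colony 3. Colony 3 was the odd one for 54 of them in GC and for 51 in M. In the most variable sets as a whole it was odd for 86.6% in GC and 22.7% in M, and over all genes for 48.6% and 29.8%. The GC count thus follows in large part from the choice of genes. Protein-coding genes made up 37, of which 8 are in the primitive endoderm list (Amn, Pth1r, Cubn, Gata6, Srgn, Dab2, Lrp2 and Sox17) and 3 in the fibroblast list (Col3a1, Col5a2 and Thbs1). Among these 37, M colony 2 was the lowest for 21, against 32.2% of all genes. GC colony 3 was the highest for 23, against 39% of all genes. The 37 were chosen by their spread, so the shares over all genes are not a like reference for these 2 counts. With processed pseudogenes left out, the shared part of the sets was 10.2%.

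By another rule, the smaller of the 2 within-source SDs without adjustment for level, 10 coding genes were named for a spread in both sources. Of these, Amn, Apob, Zfp738 and Zyg11a are also in the shared most variable set, and the others are not. Amn, the partner of the endocytic receptor cubilin, stood at 30.9, 23.4 and 17.7 CPM in GC and at 49.9, 36.7 and 62.7 CPM in M colonies. Apob, the main apolipoprotein of yolk sac and liver, stood at 6.38, 5.04 and 9.57 CPM in GC and at 15.6, 11.5 and 23.5 CPM in M colonies. All M values lay above all GC values for both genes. Glipr1 was lowest in colony 2 of each source (7.21, 4.15 and 5.12 CPM in GC, 11.4, 5.27 and 9.13 CPM in M). Zfp738, a zinc finger gene, was lowest in colony 1 of each source (7.83, 11.3 and 13.4 CPM in GC, 10.3, 17.4 and 15.4 CPM in M). The others named for a spread in both were Gm5134, Fgf5, Zyg11a, Tmem125, Cxcl14 and Lhx1, whose smaller SD ran from 0.386 to 0.468.

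At the other end, 10 coding genes of at least 50 CPM were named as the least variable. Eef1a1, the elongation factor that brings transfer RNA to the ribosome, averaged 12108.9 ± 13.4 CPM over GC and 11181.7 ± 44.5 CPM over M colonies (SD, 3 colonies each). Psmd11, a proteasome subunit, was 192 ± 0.415 and 198 ± 0.96 CPM, and Rbbp4, a histone chaperone, was 475 ± 1.8 and 471 ± 2.73 CPM. The highest colony of a source was within 1.01-fold of the lowest in all 3. The remaining 7 of the 10 were Set, Ubap1, Wdr12, Ddx1, Smndc1, Ubr7 and Ppp1r15a, with SDs of at most 0.0155 in either source. Counting alone gave a median expected SD in GC colonies of 0.019 at 100 CPM or more and 0.038 at 20 to 100 CPM. The SDs of Psmd11 (0.00311 and 0.00699) and Ubap1 (0.0099 and 0.0036) lay under these medians. Ranking by the smallest SD of 3 values favours such genes, and whether they are steadier than others of their level was not tested. The 8 subunits of the chaperonin CCT, which folds actin and tubulin, had the lowest median level-adjusted SD of the lists in each source, with members between 0.145 and 0.835. Over the settings run this list ranked 37 of 37 in GC colonies except without GC colony 3 (rank 35). In M colonies it did so except without M colony 2 (rank 34) and without M colony 3 (rank 35). Translation initiation factors (0.684 and 0.817, 31 genes) and DNA replication genes (0.85 and 0.743, 34 genes) were also below 1 in both sources. Of the common reference genes, Gapdh had SDs of 0.092 and 0.0346, Actb 0.124 and 0.0806 and Tbp 0.0298 and 0.0454 in GC and M colonies.

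The difference between the sources, which the centring removed, was tested beside the spread. With the quasi-likelihood test of edgeR, 721 of 18166 genes passed an adjusted p of 0.05 (3.97%), 308 higher and 413 lower in M colonies. Of the genes described here 659 passed (4.62%). Of the most variable GC genes 20 of 714 passed (2.8%), 19 of them higher in M, and of the most variable M genes 115 of 713 tested (16.1%), 54 higher and 61 lower. The median size of the difference was 0.133 and 0.275 log2 units in these sets and 0.118 over all genes. The error of the test grows with the spread that chose the sets, so these shares describe the sets and compare nothing between them. Without both M colonies that lack Y-linked counts 373 genes passed, 252 of them among the 721. The count was 412 without GC colony 1, 244 without GC colony 2 and 270 without M colony 3.

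Of the named genes 21 passed this test, where 3.97% of all genes tested passed. A call did not mean that all colonies of the sources lay far apart. Nlrp4f passed (log2 change 2.05, edgeR adjusted p = 0.0166), although M colony 1 (3.38 CPM) stood near the GC colonies (2.54 to 3.03 CPM). Without M colonies 2 and 3 its log2 change was 0.288. Sp110 averaged 24.4 ± 1.36 (GC) and 9.33 ± 3.83 CPM (M; SD, n = 3 each), a log2 change of -1.39 ± 0.23 (SE) with an edgeR adjusted p = 0.00498. Amn was 24 ± 6.59 and 49.8 ± 13 CPM, a log2 change of 1.05 ± 0.20 with an edgeR adjusted p = 0.01. Zdbf2 was 47.9 ± 16.2 and 92.6 ± 10.8 CPM, with a log2 change of 0.95 ± 0.19 and an edgeR adjusted p = 0.013. The calls for Amn and Zdbf2 ended without M colony 3 (edgeR adjusted p = 0.0668 and 0.0784), that for Amn also without GC colony 2 (0.055), and that for Zdbf2 also without both M colonies that lack Y-linked counts (0.0735). Of 21 named genes called, Sp110, Pou5f1 and Cd37 stayed called under all 11 other settings run. Adam23 (142 ± 2.54 and 80.9 ± 41.4 CPM), Zfp42 (469 ± 7.56 and 325 ± 104 CPM) and Fgf5 (3.54 ± 1 and 6.95 ± 3.71 CPM) did not pass, with edgeR adjusted p values of 0.165, 0.0813 and 0.176. In primitive endoderm 11 of 29 genes passed, all higher in M colonies, and in the 2-cell-like list 20 of 32, all lower. Over all genes described 4.62% passed, 281 higher and 378 lower in M colonies. These list counts were taken in the main setting only. Many 2-cell-like members are near-identical copies, so their calls are not separate results. Whether the colonies trace to different mice is not stated, and p values therefore reflect only the scatter among these 6 cultures.

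The ESC library lay outside the range of the 6 colonies for 57.7% of the genes described. That share was 47.6% in the most variable GC genes, 62.2% in the most variable M genes and 73.4% in the 928 genes of the lowest 25% in both sources. With a narrow colony range, ESC falls outside it more easily, and the single ESC library allows no test.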

How the data were processed

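The authors deposited 1 table of raw counts, unscaled integers for each Ensembl gene. The submitters' processing notes list STAR 2.7.10a, featureCounts 2.0.6, DESeq2 and the mouse build mm10 (GRCm38). Strandedness is described in 2 ways in the labels (a non-stranded poly-A library in the design, a directional kit in the protocol), and the setting used in counting is not stated, so antisense neighbours may share counts. Gene names came from GENCODE M21 (54809 of 54838 genes matched), promoters from RefSeq.

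Log2 CPM was computed with TMM scaling (edgeR 4.0.16) and a prior count of 2, centred within each source, and the SD taken over 3 colonies. M and GC colonies were compared with edgeR's quasi-likelihood test after filterByExpr (two-sided, Benjamini-Hochberg). SE is the log2 change over the square root of F. Lists are described by counts and medians. The calculations were checked on simulated data. The members and lists were chosen with earlier results of these data known. Totals of 31139508 to 35728921 counts put the limit of 3 counts at 0.0839 to 0.101 CPM.

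Named genes were the 12 coding genes with the largest SD per source, the 10 with the largest smaller SD (each with mean CPM of at least 5), the 10 with the smallest larger SD (at least 50 CPM), 3 per list, and a set of pluripotency and reference genes. Colonies with the same number deviated together slightly (r = 0.125, 0.102 and 0.171 over all genes, 0.0597, 0.0781 and 0.0141 over coding genes), so the number was also used as a block. Other settings covered scaling, prior count, level, chromosomes, gene type, left-out colonies and DESeq2 1.42.0.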

Additional observations from a re-analysis of the deposited data

How the results depend on the processing

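The median SD was 0.0719 to 0.121 in GC and 0.0867 to 0.104 in M colonies with 1 colony left out. With a minimum of 5 CPM it was 0.0978 in M, and with coding genes only 0.111. Genes at an SD of 0.5 or more numbered 91 in GC and 94 in M colonies with a minimum of 5 CPM, 221 and 392 with coding genes only, 335 in GC without processed pseudogenes and 333 to 884 in GC with 1 colony left out. The shared part of the most variable sets was 6.44% to 16.4% with 1 colony left out, 10.6% with coding genes only, 10.2% without processed pseudogenes, 10.5% for the top 1%, 17.7% for the top 10% and 24.9% with the SD not adjusted for level. The rank correlation of level-adjusted SD was 0.0291 to 0.0572 with 1 colony left out, 0.054 with coding genes only, 0.0528 without processed pseudogenes and 0.0527 with the length and GC adjustment. The difference in colony distance between sources ran from -0.0878 to 0.0797 with 1 colony left out, and was reversed without GC colony 1 (-0.06) and GC colony 2 (-0.0878). With 2 mates per fragment, 33.7% of GC and 33.5% of M genes had an SD of at least 2 times the counting error. Scaling and prior count left these values close to those reported. Genes passing between M and GC colonies numbered 1110 with DESeq2, 1318 without a filter on low counts, 373 without both M colonies that lack Y-linked counts and 244 to 814 with 1 colony left out (412 without GC colony 1, 244 without GC colony 2 and 270 without M colony 3). With the replicate block 963 passed, 710 of them among the 721, and none of the 21 named genes called lost its call. Without the filter the edgeR adjusted p of single genes also shifted far (1.07e-27 for Zdbf2, against 0.013 with it), so that fit is given for its count only. Over all settings those 21 genes kept their call in 161 of 231 cases, lost it in 70 and never changed sign. The cause of these changes was not tested, apart from fewer genes or colonies in a setting. Genes under 5 CPM have counting errors near their spread, and differences among them were not always detectable at this depth. Settings with processed pseudogenes left out, with the length and GC adjustment, and without the 2 M colonies were chosen after the data were seen.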
